A study of Mus musculus with 6 samples.

Results

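Long non-coding RNAs that are abundant in the nucleus, or that carry small nucleolar RNAs (snoRNAs) in their introns, were examined as places where labelled DNA ends gathered. The 9 genes were Malat1 and Neat1, the snoRNA hosts Gas5, Snhg1, Snhg12 and Snhg3, and the imprinted genes Kcnq1ot1, Meg3 and H19. They were taken by name from a RefSeq table of 49943 genes, and all 9 were found. Every summit of either peak list inside a gene body or within 1 kb of an end, and within 10 kb, was collected. DNA ends were mapped by BrITL, in which ends in permeabilised cells are tagged with a biotinylated nucleotide, pulled down on streptavidin beads and sequenced beside input DNA. The cells were mouse embryonic fibroblasts immortalised by passage, ATR+/- in genotype and expressing the survival protein Bcl-xL, features that all groups shared. The DMSO group had vehicle for 18 h. The treated group had ATR-45 at 1 µM, which blocks the replication checkpoint kinase ATR, and aphidicolin at 0.2 µM, which slows replicative polymerases, for 18 h. A group comprised 2 pull-downs and 1 input, with no separate cultures named, and its pull-downs were pooled into 1 peak list.

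MALAT1 RNA is retained in nuclear speckles, and NEAT1 RNA is the scaffold of paraspeckles. Both are among the most highly transcribed loci of many cells, and they lie next to each other in mouse and human. The snoRNA hosts are short genes whose spliced RNA is mostly degraded while the intronic snoRNAs guide the modification of ribosomal and other RNAs. Kcnq1ot1, Meg3 and H19 are each expressed from the maternal or the paternal copy alone in many tissues, and Kcnq1ot1 starts inside an intron of Kcnq1, on the opposite strand, at an imprinted control region.

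The DMSO list held 6444 peaks and the treated list 491. Their lowest −log10 q values were 18.5 and 3.38, so the lists did not reach down to the same value. The rule by which peaks entered each list was not stated, and folds of the lists were not set against each other. The files gave no read totals. Since each list was pooled, no value below has a replicate error, no test was run, and the counts describe these lists. Peak lists carry no expression values, so the fibroblast label was not checked against marker genes, and the level of each RNA in these cells was not analysed here.

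In the DMSO list, 5 of the 9 genes had a summit in the body or within 1 kb of an end. They were Malat1, Gas5, Snhg1, Snhg3 and Kcnq1ot1. The same rule called 12.9% of all 49943 genes, 7.63% of 12727 lncRNA genes and 7.28% of the 11191 lncRNA genes whose length lay between those of the shortest and the longest of the 9. In the treated list Neat1 alone of the 9 had such a summit, against 0.661% of all genes and 0.420% of lncRNA genes of like length. Within 10 kb the DMSO list reached 6 of the 9, with Neat1 added, against 18.6% of all genes and 12.6% of lncRNA genes of like length. The treated list still reached Neat1 alone, against 1.18% and 0.840%. Snhg12, Meg3 and H19 had 0 summits within 10 kb in either list.

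**Figure D1:**
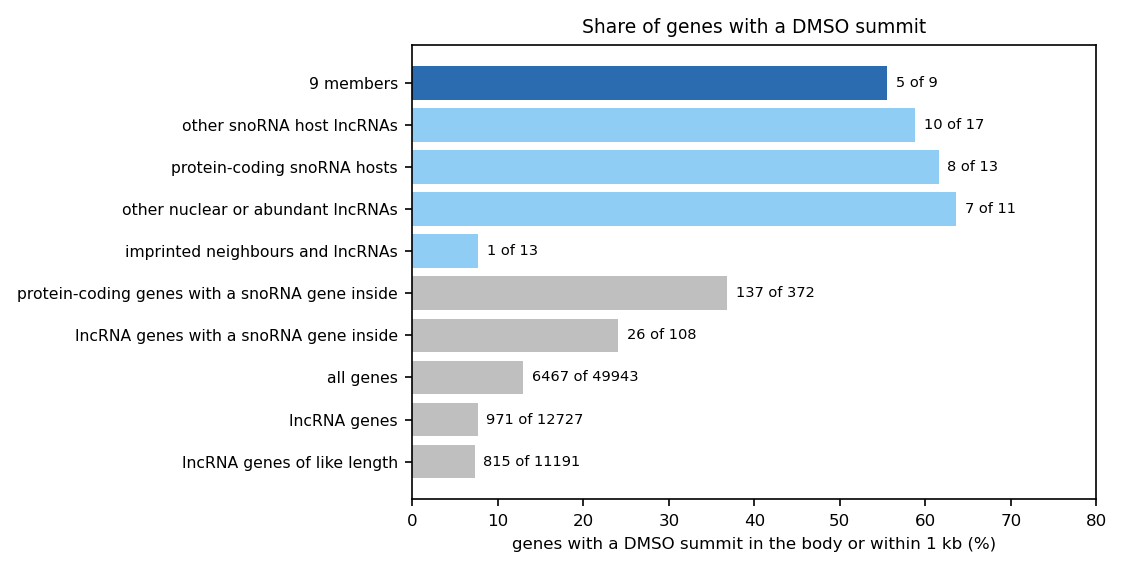
Share of genes with a DMSO summit in the body or within 1 kb of an end, in percent, with the counts beside each bar. The 9 genes are in dark blue, lists of related genes in light blue and gene classes of the RefSeq table in grey; 5 of the 9 genes had a summit, against 12.9% of all genes.

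The start regions of the snoRNA hosts and of a pair of imprinted genes are shown because a DMSO peak lay over the start of 3 hosts and of Kcnq1ot1, and not over that of Snhg12 or Meg3. Each run covers 250 bases before to 50 bases after a RefSeq start (GRCm38.p6, the assembly of mm10), 5′ to 3′ on the strand of the gene. Capitals mark the GC box, searched as GGGCGG on both strands of each region. They also mark the CCAAT box, searched by those letters on both strands. The last motif in capitals is the TATA box, searched as TATAAA on both strands. The table had no entry for Neat1 or H19.
Gas5, inner of 2 starts, plus strand, chr1:161034916-161035215: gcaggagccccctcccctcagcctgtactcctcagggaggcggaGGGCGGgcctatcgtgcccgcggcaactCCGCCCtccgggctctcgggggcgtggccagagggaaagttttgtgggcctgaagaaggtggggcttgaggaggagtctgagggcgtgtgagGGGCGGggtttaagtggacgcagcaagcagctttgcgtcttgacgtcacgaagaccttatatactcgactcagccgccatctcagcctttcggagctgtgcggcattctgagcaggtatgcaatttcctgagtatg
Snhg1, plus strand, chr19:8723237-8723536: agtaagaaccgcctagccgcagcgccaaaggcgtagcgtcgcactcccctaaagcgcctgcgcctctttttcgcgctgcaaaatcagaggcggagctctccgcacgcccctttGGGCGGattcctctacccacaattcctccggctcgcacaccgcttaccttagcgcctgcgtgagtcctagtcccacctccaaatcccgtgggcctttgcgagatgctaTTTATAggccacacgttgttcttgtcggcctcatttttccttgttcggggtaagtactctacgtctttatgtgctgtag
Snhg3, minus strand, chr4:132353637-132353936: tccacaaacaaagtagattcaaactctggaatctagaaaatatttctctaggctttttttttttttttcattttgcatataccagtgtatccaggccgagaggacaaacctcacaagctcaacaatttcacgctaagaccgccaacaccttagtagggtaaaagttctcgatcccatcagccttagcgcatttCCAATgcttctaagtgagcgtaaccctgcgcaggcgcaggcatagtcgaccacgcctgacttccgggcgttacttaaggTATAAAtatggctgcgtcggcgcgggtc
Snhg12, plus strand, chr4:132308428-132308727: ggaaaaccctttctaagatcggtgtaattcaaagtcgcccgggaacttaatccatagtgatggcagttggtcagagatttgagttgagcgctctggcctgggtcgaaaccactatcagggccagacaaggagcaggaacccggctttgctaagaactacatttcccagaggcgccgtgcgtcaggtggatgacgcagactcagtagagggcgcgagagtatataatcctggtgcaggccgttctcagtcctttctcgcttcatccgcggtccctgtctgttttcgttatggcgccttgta
Kcnq1ot1, minus strand, chr7:143296498-143296797: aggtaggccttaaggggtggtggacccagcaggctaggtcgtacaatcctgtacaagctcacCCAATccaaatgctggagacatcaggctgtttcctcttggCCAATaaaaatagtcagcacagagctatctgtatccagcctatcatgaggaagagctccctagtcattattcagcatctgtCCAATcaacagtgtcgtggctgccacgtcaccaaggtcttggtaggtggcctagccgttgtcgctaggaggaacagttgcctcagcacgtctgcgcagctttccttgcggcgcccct
Meg3, first of 2 starts, plus strand, chr12:109540746-109541045: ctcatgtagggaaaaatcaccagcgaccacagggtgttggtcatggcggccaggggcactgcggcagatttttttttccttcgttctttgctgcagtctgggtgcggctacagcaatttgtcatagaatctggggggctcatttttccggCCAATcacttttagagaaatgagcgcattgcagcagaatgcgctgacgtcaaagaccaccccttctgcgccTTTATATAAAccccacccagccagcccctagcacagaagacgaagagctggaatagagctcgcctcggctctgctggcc

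Neat1 had the strongest DMSO peak near any of the 9 genes, and the treated peak. Neat1 spans 5824708 to 5845480 on chromosome 19 (mm10), 20.8 kb. In the DMSO list its peak ran from 5838422 to 5852220, 13.8 kb, and lay over the upper end of the gene, with 7.06 kb inside the body and 6.74 kb beyond it. In mouse, as background, Neat1 is transcribed towards the lower coordinates, so the upper end is its start. The authors' fold at the summit was 24.3, with a −log10 q of 85.1. This was the 33rd highest fold of 6444 DMSO peaks, and 15 DMSO peaks were wider. Among the 2758 DMSO peaks with a summit more than 1 kb from every end of a protein-coding gene, it ranked 8 by fold. The summit lay 1604 bp beyond the upper end of Neat1, outside the 1 kb window, which is why the count within 1 kb leaves Neat1 out although the peak covers 34.0% of the body. The nearest protein-coding end was that of Frmd8, 3.89 kb away, and the peak ran 1.25 kb into that gene.

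The treated peak at Neat1 ran from 5845620 to 5845879, 260 bp, with a fold of 5.84 and a −log10 q of 5.96. By fold it ranked 96 of 491. Its summit lay 284 bp beyond the upper end of Neat1 and 1320 bp from the DMSO summit, on the side nearer the gene. The treated peak lay wholly inside the DMSO peak. Such a meeting with a treated peak was rare over the DMSO list, with 187 of 6444 peaks (2.90%), but it held for 23 of the 33 DMSO peaks (69.7%) with a fold at or above that of Neat1. A meeting was any overlap of whole peaks, for which a wide peak leaves more room. The Neat1 peak was 13.8 kb wide, against a DMSO list median of 2855 bp, and the part of width was not tested. Of the 11 DMSO peaks with a summit within 10 kb of a gene of the 9, the Neat1 peak alone met a treated peak.

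Malat1 lies at 5795690 to 5802672 on chromosome 19 (mm10, minus strand), 22.0 kb below Neat1, and had DMSO peaks at both ends. A peak over its start had a fold of 14.9 and a −log10 q of 42.0, ran for 6.71 kb and was wider than 97.8% of the list. Its summit lay 1045 bp upstream of the start, just outside the 1 kb window. A peak over the 3′ end had a fold of 10.9 and a −log10 q of 30.1, with its summit 861 bp past that end, just inside the window. The 3′ end of Malat1 is where its RNA is cut to release the small mascRNA. Together these peaks covered 83.1% of the gene body. Further DMSO peaks had summits 7499 bp upstream of the start (fold 12.2) and 8637 bp past the 3′ end (fold 11). No end of another gene lay within 1 kb of any of these 4 summits. The treated list had no summit within 10 kb of Malat1, the nearest being the Neat1 peak 43.1 kb above its body.

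Taking both genes together, 5 DMSO peaks with folds from 10.9 to 24.3 lay between 5786266 and 5852220 on chromosome 19. They covered 31.3 kb, or 47.5%, of these 66.0 kb. The lower part of the Neat1 body held no peak of either list.

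**Figure D2:**
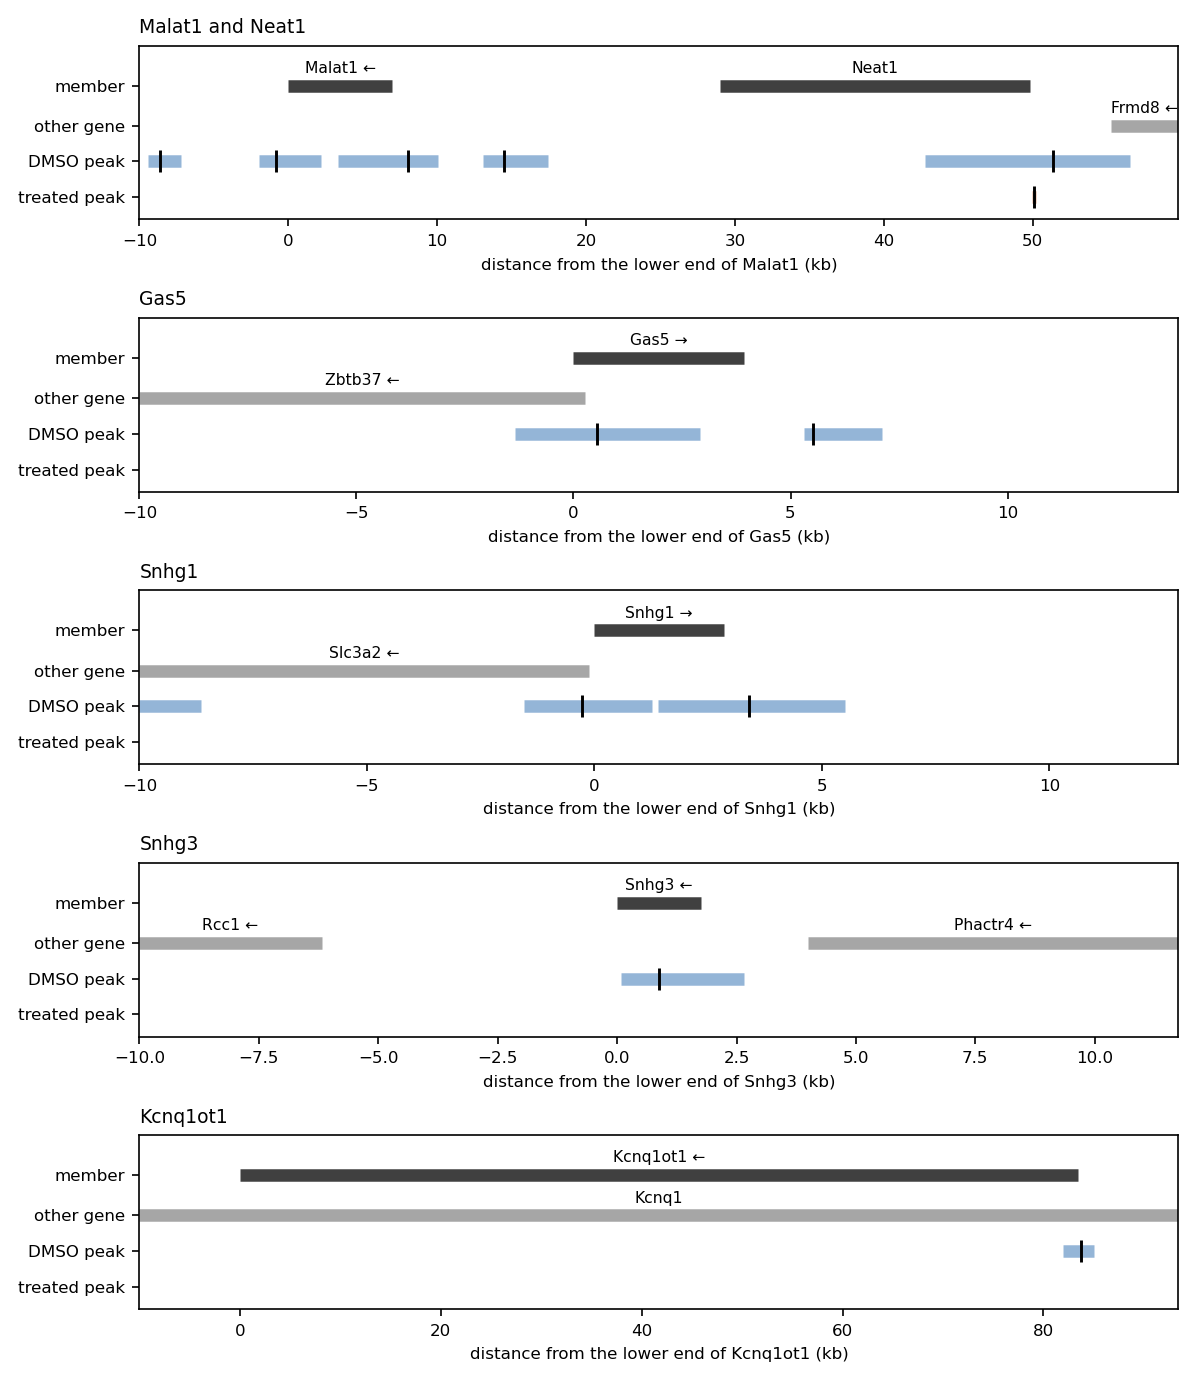
Maps of the loci with DMSO peaks, drawn to scale from 10 kb below to 10 kb above the named genes, as distance in kb from the lower end of the first gene in each panel. Dark bars are the examined genes, grey bars selected neighbouring genes, blue and orange bars DMSO and treated peaks and black ticks their summits; arrows give the direction of transcription where the promoter table held it. The treated list has 1 peak in these maps, inside the 13.8 kb DMSO peak at Neat1.

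Of the 4 snoRNA hosts, 3 had a DMSO summit in the body or within 1 kb and 0 had a treated summit. Over all lncRNA genes with an annotated snoRNA gene inside, a DMSO summit was called for 24.1% of 108 and a treated summit for 0.926%. For protein-coding genes with a snoRNA gene inside, the DMSO share was 36.8% of 372. The 104 such lncRNA genes outside the 9 had a share of 22.1%. These classes held longer genes, with median lengths of 22.3 kb and 59.8 kb, than the 4 hosts, at 1.75 to 3.94 kb.

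Gas5, which holds 8 annotated snoRNA genes in 3.94 kb (161034601 to 161038539 on chromosome 1, plus strand), had the highest fold among the hosts. Its DMSO peak had a fold of 15.1 and a −log10 q of 43.2, above 83.9% of the list by fold. The summit lay 539 bp inside the gene from the outer RefSeq start, but 26 bp upstream of the inner one, and so within the inner start region printed above. The peak covered 74.2% of the body and 5 of the 8 snoRNA genes. Zbtb37, a zinc finger gene on the opposite strand, overlaps the outer start by 264 bp, and its 5′ end lay 276 bp from the summit, so the peak cannot be given to Gas5 rather than Zbtb37. A second DMSO peak, of fold 8.90 and −log10 q 26.4, had its summit 1591 bp past the 3′ end of Gas5.

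Snhg1, with 8 snoRNA genes in 2.84 kb (8723487 to 8726326 on chromosome 19, plus strand), had a DMSO peak at each end. The summit near the start lay 271 bp upstream, with a fold of 8.57 and a −log10 q of 24.4. That at the other end lay 553 bp past the 3′ end, with a fold of 8.71 and a −log10 q of 23.0. Both were low in the list, above 12.9% and 13.7% of DMSO peaks by fold. A gap of 132 bp separated the peaks, which together covered 95.4% of the body and all 8 snoRNA genes. It was not tested if a single broad site had been divided by the caller. Slc3a2, which encodes the heavy chain of an amino acid transporter, is on the minus strand, with its upper end, the 5′ end of the gene, 117 bp below the start of Snhg1. That end was nearer to the first summit (153 bp) than the start of Snhg1.

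Snhg3, with 2 snoRNA genes in 1.75 kb (132351933 to 132353686 on chromosome 4, minus strand), had a DMSO peak of fold 9.77 and −log10 q 21.7. Its summit lay 867 bp downstream of the start, inside Snora73a, and the peak covered 94.8% of the body and both snoRNA genes. The nearest end of a gene other than its snoRNA genes was that of Phactr4, 3.10 kb away. Snhg12, with 4 snoRNA genes in 2.35 kb (132308678 to 132311024, plus strand), lies on the same chromosome and had no peak in either list within 10 kb. The nearest DMSO summits were 38.7 kb below it and 41.8 kb above it, the latter being that of Snhg3.

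No motif searched was present at all 3 hosts with a peak and missing from Snhg12. The inner Gas5 region held 3 GC boxes and Snhg1 held 1, and Snhg3 and Snhg12 held 0. A GC box was present in 35.9% of 27025 RefSeq start regions. A TATA box (14.2% of regions) was found in Snhg1, as a match on the opposite strand, and in Snhg3, downstream of the start. A CCAAT box (37.9%) was found in Snhg3. The E-box CACGTG (7.24%) and the AP-1 motif TGANTCA (7.93%) had no match in the start regions of the 7 genes in the table. In the regions printed above, the only matches that shared letters were the 2 TATA matches of Meg3. The observed over expected ratio of CpG was 1.07 in Snhg1, 1.02 in Snhg3, 0.859 in Snhg12 and 0.672 in the inner Gas5 region. The outer Gas5 region, not printed above, held 5 GC boxes and had a ratio of 0.904. The median ratio was 0.832 over the 4401 regions whose start lay under a DMSO peak and 0.308 over the 22624 others. Snhg12 was thus CpG-rich without a peak, and the inner Gas5 region lay between these medians. Host transcripts are known to begin with a pyrimidine tract, as do those of ribosomal proteins. Of the first 10 transcribed bases, 9 were C or T in Snhg1 and Snhg12, 6 at the inner Gas5 start and 5 in Snhg3. At least 9 were so in 2.79% of regions.

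Kcnq1ot1 had a DMSO peak at its start and none elsewhere along its 83.4 kb (143213111 to 143296547 on chromosome 7, minus strand). The peak ran from 143295061 to 143298138, with a fold of 11.2 and a −log10 q of 38.0. The summit lay 307 bp upstream of the start, deep inside the overlapping gene Kcnq1, a potassium channel gene, with the closest protein-coding end, that of Kcnq1 itself, 130 kb away. By fold the peak was above 50.6% of the list, and by −log10 q above 74.4%. It covered 1.78% of the body of Kcnq1ot1. The start region held 3 CCAAT boxes and no GC box, with a CpG ratio of 0.422.

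Meg3 and H19 had no peak near them. The nearest DMSO summits to Meg3 (109540996 to 109571729 on chromosome 12, 30.7 kb) were 123 kb below and 875 kb above the gene. For H19 (142575530 to 142578146 on chromosome 7, 2.62 kb) they were 105 kb below and 438 kb above. The nearest treated summit was 4508 kb from Meg3 and 15097 kb from H19. The first start region of Meg3 held a CCAAT box and 2 overlapping TATA matches 29 and 25 bases before the start. The match at 29 bases is on the opposite strand. The CpG ratio was 0.602, close to that of Malat1 (0.604), whose start lay under a DMSO peak. Absence from a list does not show that ends were absent, since the weakest listed peaks already stood on 35 fragments.

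The fold of a peak rests on few fragments, so the coverage behind each was recovered from the caller's values. At the Neat1 summit the DMSO pull-down had 99 fragments. At the Kcnq1ot1 summit it had 68, at the first Gas5 summit 61 and at the Malat1 start 60. The Snhg3 summit had 39, near the lowest of the list. The median over all DMSO peaks was 49.0. The treated summit at Neat1 had 41 fragments, against a median of 42.0 over treated peaks. The background term from the input, which the caller does not let below a genome level, ran from 2.32 to 4.0 fragments at the DMSO summits. It was at that level, 2.32, for 6 of 11, including Neat1, Snhg3 and the first Gas5 peak. It was 4.0 at Kcnq1ot1, at the Snhg1 start and at the second Gas5 peak. Since the fold divides by the background term plus 1, a higher term gives a lower fold from the same pull-down coverage. At the Snhg1 start 52 fragments over a term of 4.0 gave a fold of 8.57. This was below the 9.77 that 39 fragments over a term of 2.32 gave at Snhg3. Why the input differed was not tested.

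**Figure D3:**
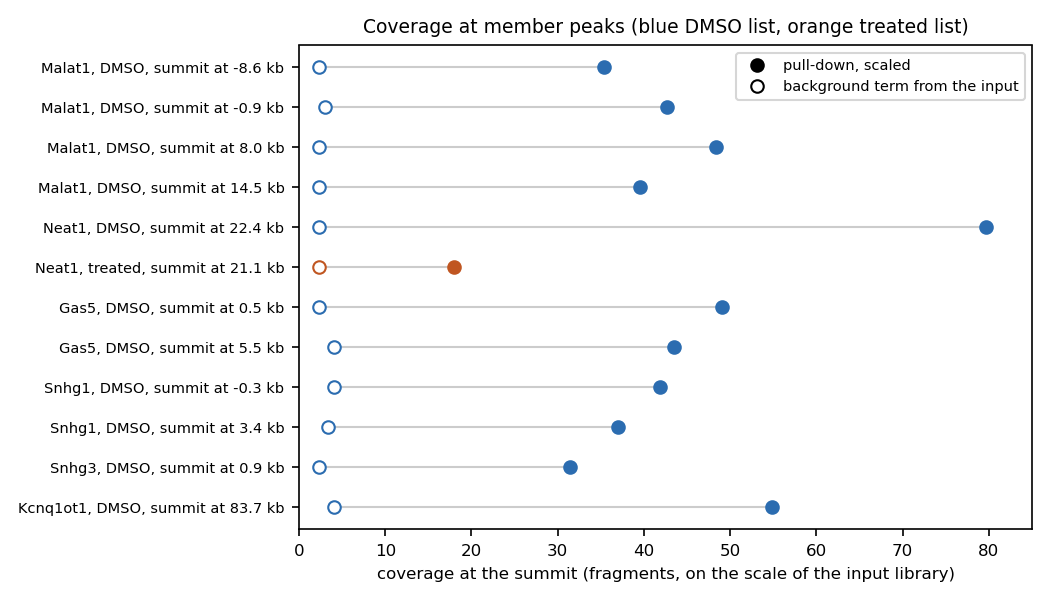
Coverage at each DMSO (blue) and treated (orange) summit within 10 kb of the 9 genes, in fragments on the scale of the input library, with summit positions in kb from the lower end of the gene. Filled points are the scaled pull-down, 31.4 to 79.7 for DMSO and 18.0 for the treated summit, and open points the background term, 2.26 to 4.0.

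Apart from Neat1, the DMSO peaks had folds from 8.57 to 15.1 and were spread over the list. The first Gas5 peak and the Malat1 start peak were above 83.9% and 82.6% of it by fold. Both Snhg1 peaks and the second Gas5 peak were above only 12.9% to 14.3%. With Neat1 included, folds of the 11 DMSO peaks within 10 kb ran from 8.57 to 24.3. Their median was 11, and the median of the whole list was also 11. Of these 11, 5 were above the list median, Neat1 among them. Their median width was 4117 bp, against 2855 bp for the list.

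**Figure D4:**
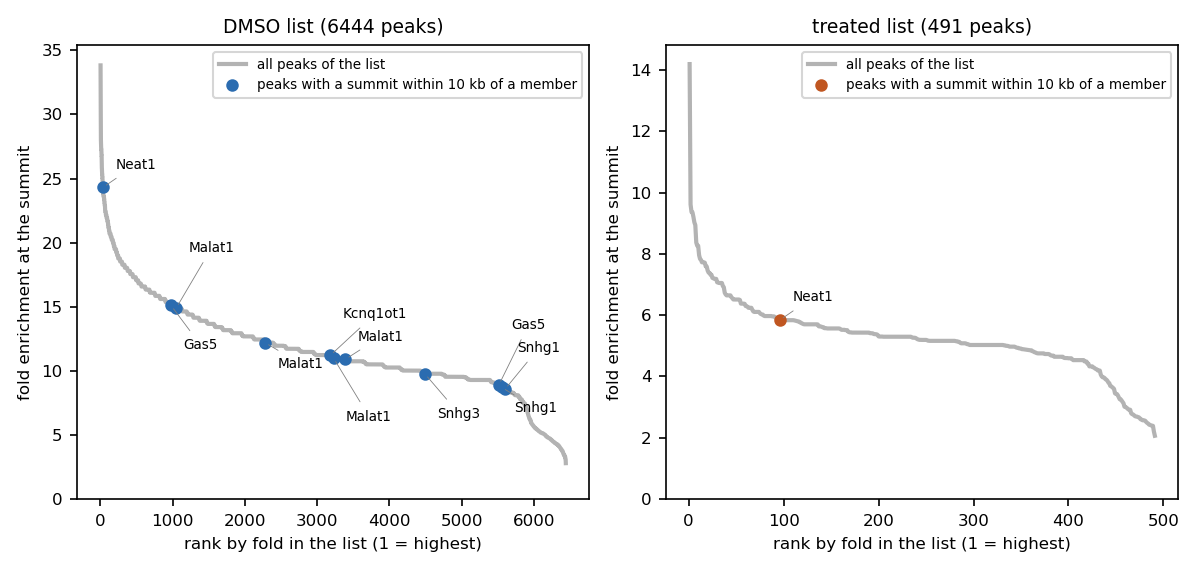
Authors' fold at the summit against rank by fold within the DMSO list (left) and the treated list (right). Grey lines are all peaks and points those with a summit within 10 kb of the 9 genes; Neat1 ranks 33 of 6444 (left) and 96 of 491 (right), and the other DMSO points lie between folds of 8.57 and 15.1.

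Peaks over gene starts were common among the 9. Of the 7 genes with a start in the promoter table, 5 had it under a DMSO peak (Malat1, Gas5, Snhg1, Snhg3 and Kcnq1ot1), against 16.3% of 27025 starts and 6.54% of 9533 lncRNA starts. None of the 7 had it under a treated peak, against 0.30% of starts. Where a DMSO peak covered a start, the median distance of its summit from the start was 304 bp in either direction over 4401 starts, and 92.3% lay within 1 kb. Snhg1 and Kcnq1ot1, at 271 and 307 bp, were near this median. Gas5, at 539 bp from its outer start, the one counted here, and Snhg3, at 867 bp, were farther. Malat1, at 1045 bp, was beyond 1 kb. A second DMSO peak at the far end was less common. Of 3575 genes of like length with a DMSO summit within 2 kb of the start, 3.89% also had a different DMSO peak with a summit within 2 kb of the 3′ end. Among the 5 genes of the 9 with such a start it held for 3, Malat1, Gas5 and Snhg1. These 3 are short, at 6.98, 3.94 and 2.84 kb, whereas all genes of like length had a median of 11.8 kb. In Gas5 and Snhg1 the windows at the start and the 3′ end overlap. The share is therefore not matched to them in length, and the part of length was not tested. The window of 2 kb was chosen after the summits had been seen.

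Related genes outside the 9 were counted by the same rule. Ends of neighbouring genes were not listed for them, so a fold below describes a peak at the locus and is not assigned to the gene named. Of 17 other snoRNA host lncRNAs, 10 had a DMSO summit in the body or within 1 kb. The highest folds were at Snhg9 (15.8), Snhg10 (14.9), Zfas1 (14.5) and Dancr (14.5). Snhg10 and Dancr also had treated summits, with folds of 5.03 and 4.60. These were 2 of the 17, beside 0.926% of the 108 lncRNA genes with an annotated snoRNA gene inside. The 4 hosts among the 9, with 0, are too few to set against this. The 17 were taken by name, and Snhg10 was not among the 108 lncRNA genes with an annotated snoRNA gene inside. Of 13 protein-coding snoRNA hosts, 8 had a DMSO summit, led by Prrc2a (20.5), Nop56, a core protein of box C/D snoRNPs (18.8), Hspa8, a constitutive chaperone (17.5) and Eef2, translation elongation factor 2 (16.5). Treated summits were at Nop56 (fold 5.0), Eef1b2 (5.03) and Eif4a2 (5.16), the last pair without a DMSO summit and named after their values were seen. Of 11 other nuclear or abundant non-coding RNA genes, 7 had a DMSO summit, among them Dleu2 (16.8), Tug1 (12.9), Rmrp, the RNA of RNase MRP (12.2) and Rn7sk, the 7SK RNA (11.2). Pvt1 was the single gene of this list with a treated summit (fold 2.07), where the background term was 35 fragments. Of 13 imprinted neighbours and other imprinted lncRNAs, 1 had a DMSO summit and 0 a treated one. That gene was Kcnq1, through the peak at the start of Kcnq1ot1. Counts this low are near the shares over all genes and are not read as a trait of imprinted genes.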

How the data were processed

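Peaks were called with MACS2 on pooled libraries, all pull-downs of a group against all its inputs, per the file headers' peak names, which also carry a folder named idr. Per the submitters' processing notes MACS2 was version 2.1.0, the aligner STAR 2.5.2a and the build mm10. The notes also list Picard 1.141, SAMtools 0.1.19 and bcl2fastq 2.17.1.14, and settings were not given in the sources used here. The deposited values per peak are a fold enrichment (a ratio at the summit), −log10 p, −log10 q and a score, which is the whole part of 10 times −log10 p in every row.

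A summit is column 2 plus column 10 plus 1. Genes came from RefSeq GRCm38.p6 on 21 chromosomes. Strand came from the promoter table. Fold was inverted as pull-down plus 1 over background plus 1, with p as a Poisson tail. All 6444 and 491 peaks solved within 0.02 of a whole multiple of a scaling step (0.8052 DMSO, 0.4394 treated), and for 300 simulated peaks per list with these steps the inversion returned 100% of the coverages. Fragment counts cover counting error only. The 9 genes, the related lists and all comparisons were chosen with earlier results of these data known. All 9 genes were named, with neighbours whose ends lie near a summit, and up to 4 genes of highest fold per related list; some neighbours are not reported here. Of the 14 imprinted genes written, 13 matched. Alternatives changed the window, the use of summits and the threshold. Scripts ran in Python 3.11.15 (pandas 2.3.3, SciPy 1.17.1, NumPy 2.4.6, Matplotlib 3.10.9).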

Additional observations from a re-analysis of the deposited data

How the results depend on the processing

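Of 26 recounts of the genes reached, 23 were within 1.5 times the reported count. This share is a weak measure of stability. The treated counts all rest on the peak at Neat1, and a wider window can only keep or raise a count. In the DMSO list the count within 1 kb was 5 of 9. It was 2 with peaks at or above the median fold (Gas5 and Kcnq1ot1), and 2 with summits inside the body (Gas5 and Snhg3). It was 6, with Neat1 added, when the whole peak or its centre was used. It was 4, with Gas5 lost, when summits nearer to an end of another gene were left out, snoRNA genes inside the body aside. The DMSO count within 10 kb fell from 6 to 4 with peaks at or above the median fold. In the treated list the count of 1 (Neat1) became 0 with summits inside the body. Ranking by −log10 q in place of fold left Neat1 above 99.3% of DMSO peaks. It raised the Snhg1 start peak from 12.9% to 33.7%, the other Snhg1 peak from 13.7% to 25.2% and the second Gas5 peak from 14.3% to 42.9%, and lowered Snhg3 from 26.7% to 15.8%. The share of genes with a DMSO summit within 1 kb was 7.08% over all non-coding genes and 16.5% over genes of like length. No paired analysis was possible because each list pools its replicates. For the same reason leaving out a replicate could not be run. A peak under 35 fragments is in neither list, which limits what absence means for Snhg12, Meg3 and H19.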
